A study of Zea mays subsp. mays with 2 samples.

Results

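Close neighbours are pairs of transcribed loci that follow each other along a maize chromosome with less than 1000 bases between the end of the left member and the start of the right one. Members were chosen by position alone: chromosomes 1 to 10, a position held by 1 locus, and a span, end minus start with introns, above 1000 bases. Of 29674 loci in the table, 21341 met these conditions and 2837 of them (13.3%) stood in 1477 close pairs, 117 of them in 2 pairs. Before the conditions on the members, 2298 consecutive positions were that close, and 64.3% of those had both members of this kind. The loci come from shoots and from roots of the inbred line B73, collected separately 14 days after germination from plants of the same growth chamber. Polyadenylated RNA of each organ was sequenced as 1 paired-end library that did not mark the strand, and no treatment or genotype separates the groups. The labels do not say how many plants went into a library. With 1 library per organ every difference given here is between these 2 libraries, and no p-value was computed.

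Maize genes sit in small islands between long stretches of transposable elements, so neighbours under 1 kb apart belong to the densest parts of the genome. Such neighbours can read in the same direction, face each other with their ends, or start back to back from a shared upstream region. Tandem copies of a gene, and pieces of 1 gene assembled as separate loci, also lie close together. The table gives assembly numbers without gene names, so loci are named by their coordinates on B73 RefGen_v2, and what each encodes is not stated. All 15 plastid loci of the table had a higher FPKM in shoot, which checks the organ labels. As a contrast, 12 of 14 mitochondrial loci had a higher FPKM in root. FPKM is a fragment number adjusted for transcript length and for library size. By the steps of the low values, 1 FPKM on 1000 effective bases rested on about 113 fragments in shoot and 131 in root.

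The close pairs were ordinary in level and length. Median values of the members were 12.4 FPKM for shoot and 11.1 FPKM for root. The middle part of the members, between the quartiles, lay from 4.12 to 30.4 FPKM in shoot and from 3.38 to 29.1 FPKM in root. For all 21341 loci of this kind the medians were 11.3 and 10.6 FPKM. The median span was 3734 bases among members and 3652 bases among all such loci. A whole pair, from the first start to the last end, had a median length of 8697 bases. Members reached 1 FPKM in both organs in 2490 cases (87.8%), in shoot alone in 217 (7.65%) and in root alone in 130 (4.58%). The same shares over all such loci were 85.0%, 9.20% and 5.80%.

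Close pairs were found on every chromosome and more often toward the chromosome ends. They held from 11.2% of such loci on chromosome 8 to 15.4% on chromosome 5. Each chromosome was also divided into 5 equal parts up to its last listed locus. In the outer parts 15.3% and 15.4% of such loci stood in a close pair, and in the middle part 9.60%. Gaps started at 2 bases and had a median of 439. Gap classes are given here with their upper limit left out. Under 100 bases apart there were 114 pairs, 40 of them under 50 bases. There were 226 pairs at 100 to 200 bases and 132 at 900 to 1000 bases. None of the 17121 consecutive pairs of such loci overlapped. Loci that share a position, as at the 1901 nuclear positions with 2 loci, had been left out by the rule.

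The locus numbers carried information on the pairs that the table does not state in words. On each of the 10 chromosomes the numbers ran along the chromosome 3 times, returning to its start 2 times, with 2 other small steps back in all. Assemblers of the Cufflinks family are known to number loci strand by strand, those of undetermined strand last. That the runs stand for strands is not stated in the table and was not tested, so they are called series 1, 2 and 3 here. Series 1 and 2 were alike in size, with 13265 and 13131 nuclear loci, and series 3 had 3231. Among 1901 nuclear positions that held 2 loci, 871 held 1 of series 1 and 1 of series 2, 991 held 1 of series 3, and 39 held 2 of the same series.

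By these series the close pairs fell into 4 kinds. In 508 pairs (34.4%) both members were of series 1 or both of series 2, called same-series pairs, and 506 of these had consecutive locus numbers. In 721 pairs (48.8%) a series 1 locus was followed by a series 2 locus, called order A. In 154 pairs (10.4%) a series 2 locus was followed by a series 1 locus, called order B. The other 94 pairs (6.36%) held a series 3 locus. If series 1 were the forward strand, order A members would face each other and order B members would start back to back; which strand is which was not tested. Order A took a larger part of the closest consecutive pairs than of wider ones, 35.4% at gaps of 1000 to 5000 bases and 16.2% at 100000 bases or more. Order B ran the other way, from 10.4% in close pairs to 31.3% at 100000 bases or more. Under 100 bases, 64 of 114 pairs were of order A and 21 were same-series pairs.

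**Figure D1:**
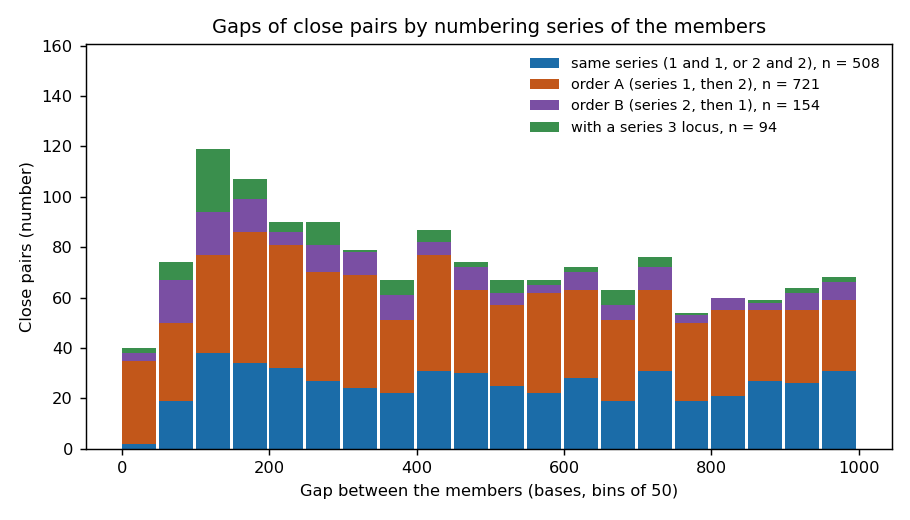
Number of close pairs (vertical axis) by the gap between their members in bases (horizontal axis, bins of 50), stacked by the numbering series of the members. Order A, 721 of 1477 pairs, fills the bins from the smallest gaps on, while same-series pairs are few under 50 bases.

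The level of a locus said little about the level of its close neighbour. Across the 1477 pairs, the mean log2(FPKM + 1) of the left and right members had a Spearman coefficient of 0.12 and a Pearson coefficient of 0.11. The higher member had a median of 3.44 times the mean FPKM of the lower one, with quartiles of 1.70 and 8.38. In 458 pairs (31.0%) the members were within 2-fold of each other, in 317 (21.5%) they were 10-fold or more apart, and in 24 they were 100-fold or more apart. Members of consecutive pairs at all gaps had a Spearman coefficient of level of 0.06. These coefficients are across pairs of loci in the same 2 libraries, and pairs are not replicates.

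Single pairs show how far levels can part over a short distance. On chromosome 9, the locus from 140718203 to 140772636 had a shoot value of 3206 FPKM and a root value of 2833 FPKM, the highest member in both organs. Its neighbour 696 bases on, from 140773332 to 140774686, had a shoot value of 7.30 FPKM and a root value of 6.53 FPKM, or 437-fold lower in mean FPKM. Both are even between the organs, and both are of the same series. On chromosome 10, the locus from 62244544 to 62249408 had a shoot value of 1.74 FPKM and a root value of 0.237 FPKM. The locus 225 bases to its right, ending at 62253562, had a shoot value of 567 FPKM and a root value of 161 FPKM. On chromosome 7, the locus from 149913440 to 149915457 had a shoot value of 1.11 FPKM and a root value of 0.192 FPKM, and its neighbour 414 bases on had values of 229 and 280 FPKM. These are the 3 pairs with the largest difference of level.

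Where both members were abundant, the organs could still part them. The pair with the highest lower member lay on chromosome 6, from 58557282 to 58559512 and from 58560469 to 58561554. Its left member had a shoot value of 700 FPKM and a root value of 108 FPKM, and its right member values of 438 and 65.1 FPKM. The next, on chromosome 3, had a left member from 165722537 to 165725325 with a shoot value of 286 FPKM and a root value of 808 FPKM. Its right member, 160 bases on and ending at 165727962, had a shoot value of 456 FPKM and a root value of 17.5 FPKM, so the organs ranked the members in opposite order. The last of the 3, on chromosome 10 from 128863150 to 128864612 and from 128865248 to 128868355, was nearly level throughout. Its members had shoot values of 177 and 180 FPKM and root values of 239 and 223 FPKM. In 1224 pairs (82.9%) the same member was the higher one in both organs, against 81.5% of consecutive pairs at all gaps.

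Level was weakly related in same-series pairs and hardly at all in order A pairs. The Spearman coefficient of level was 0.21 in same-series pairs, 0.17 in order B pairs and -0.05 in order A pairs. It was 0.11 in pairs with a series 3 locus. Same-series pairs had 0.21 both for series 1, over 256 pairs, and for series 2, over 252 pairs. Same-series pairs at gaps of 1000 to 5000 bases had 0.05. At gaps of 100 to 300 bases the coefficient was 0.38 over 131 same-series pairs and -0.11 over 183 order A pairs. Under 100 bases it was 0.25 over 21 same-series pairs and -0.29 over 64 order A pairs. On 9 of the 10 chromosomes the coefficient of level was higher in same-series pairs than in the 875 pairs of order A and order B together.

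The balance between the organs was taken as the log2 of root over shoot, with 1 FPKM added to each value, so differences of low loci come out too small. Between whole organs, fewer cells of a type and less RNA per cell cannot be told apart. The median log2 ratio was 0.08 among members, as it was among all such loci. Across all close pairs the ratios of the left and right members had a Spearman coefficient of 0.16 and a Pearson coefficient of 0.08. The Spearman coefficient was 0.04 over the 504 close pairs with both members at a mean of 10 FPKM or more, while consecutive pairs at all gaps had 0.09 with that limit and without it. Both ratios lay on the same side of 0 in 842 pairs, or 57.0%, with a 95% Wilson interval of 54.5% to 59.5%. Such intervals cover counting error only and take pairs as independent, which pairs with a shared locus are not. The same share was 53.9% at gaps of 1000 to 5000 bases, 57.3% at 5000 to 20000 bases and 52.1% at 100000 bases or more. The Spearman coefficient was 0.06 at 1000 to 5000 bases, 0.17 at 5000 to 20000 bases, 0.08 at 20000 to 100000 bases and 0.05 beyond. So over all kinds of pair together, close neighbours were no more alike in ratio, by this coefficient, than pairs 5000 to 20000 bases apart. The median absolute difference of the log2 ratios was smallest in close pairs, at 0.61. It was 0.71 in the next class and 0.83 at 100000 bases or more. With both members at a mean of 10 FPKM or more, the same values were 0.61, 0.62 and 0.63. At 5000 to 20000 and 20000 to 100000 bases they were 0.67 and 0.68. At that level the differences between classes were thus much smaller. At the 1000-base limit itself, the 132 pairs just inside, at 900 to 1000 bases, and the 137 just outside, at 1000 to 1100 bases, both had a coefficient of 0.04.

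The coefficient over all close pairs was a mixture of unlike kinds. It was 0.26 in same-series pairs, 0.02 in order A pairs, 0.10 in order B pairs and 0.77 in pairs with a series 3 locus. The median absolute difference of the log2 ratios was 0.46 in same-series pairs, 0.80 in order A pairs, 0.63 in order B pairs and 0.35 in pairs with a series 3 locus. The coefficient of same-series pairs was above 0 on all 10 chromosomes, from 0.14 on chromosome 6 to 0.43 on chromosome 9. On each chromosome it was higher than in the pairs of order A and order B together, which had 0.03 over the genome and were above 0 on 6 chromosomes. Series 1 pairs had 0.35 and series 2 pairs 0.17, so the 2 series were not equal. In same-series pairs further apart the coefficient was 0.03 at 1000 to 5000 bases and 0.17 at 5000 to 20000 bases.

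**Figure D2:**
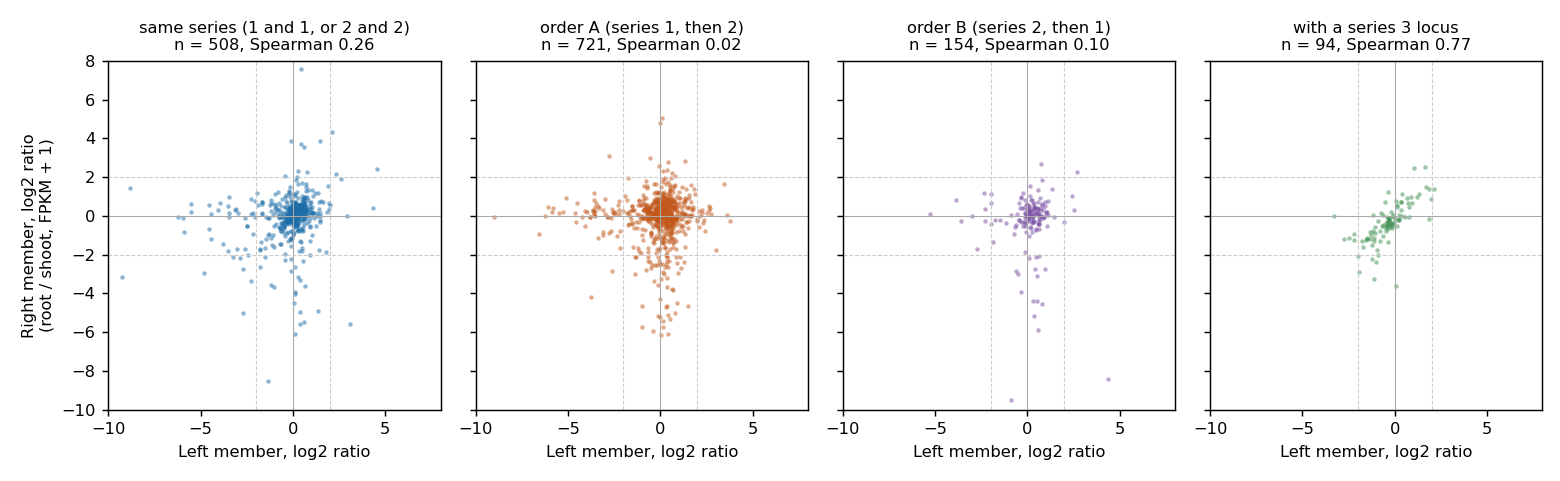
The log2 ratio of root to shoot, on FPKM + 1, of the right member (vertical axis) against that of the left member (horizontal axis), 1 point per close pair and 1 panel per kind of pair, with dashed lines at a 4-fold difference. Points of order A pairs show no slope, with a Spearman coefficient of 0.02, while pairs with a series 3 locus follow the diagonal, with 0.77.

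Among same-series pairs, those 100 to 300 bases apart were most alike. Their ratios had a Spearman coefficient of 0.41 and a median absolute difference of 0.28 over 131 pairs, against 0.20 and 0.56 over the 356 same-series pairs 300 to 1000 bases apart. The 21 same-series pairs under 100 bases apart had 0.22. With both members at a mean of 10 FPKM or more, 46 pairs at 100 to 300 bases had a coefficient of 0.56, so it was not limited to low loci. In order A pairs of the same level and gap, 59 in number, it was -0.05. Over the whole range, pairs at that level had 0.27 when same-series and -0.09 when of order A, over 186 and 257 pairs.

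The 4 same-series pairs at 100 to 300 bases with the largest smaller ratio, picked after their values were seen among pairs with both ratios on the same side of 0, differed in how even they were. On chromosome 1, the locus from 174847627 to 174849329 had a shoot value of 18.1 FPKM and a root value of 116 FPKM. Its neighbour 126 bases on, ending at 174850850, had a shoot value of 7.45 FPKM and a root value of 31.3 FPKM, so both were higher in root, by 6.43-fold and 4.19-fold. On chromosome 8, the locus from 97175227 to 97178591 had a shoot value of 24.0 FPKM and a root value of 6.23 FPKM. The locus 141 bases to its right, ending at 97180813, had a shoot value of 42.6 FPKM and a root value of 11.9 FPKM. Those members were higher in shoot by 3.85-fold and 3.57-fold. The other two pairs were less even. On chromosome 4, loci from 3453260 to 3459615 and from 3459913 to 3467744 had shoot values of 69.9 and 13.5 FPKM and root values of 6.39 and 2.33 FPKM, or 10.9-fold and 5.81-fold higher in shoot. On chromosome 10, loci from 25773761 to 25777117 and from 25777379 to 25780578 were 14.1-fold and 3.74-fold higher in shoot.

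Pairs with a series 3 locus were low in level and the most alike in ratio. The Spearman coefficient of their levels was 0.11, against 0.21 in same-series pairs, and it was below 0 at every wider gap. The median shoot value of their loci was 3.01 FPKM and the median root value 2.08 FPKM. For the 105 series 3 members alone these were 2.07 and 1.41 FPKM, with a median span of 2073 bases. At these levels the listing of loci above 1 FPKM in at least 1 organ bears on the ratio, and its part in the likeness was not tested. Ratios lay on the same side of 0 in 81.9% of the 94 pairs. The Spearman coefficient of the ratio in such pairs was 0.62 at 1000 to 5000 bases over 72 pairs. It was 0.58 at 5000 to 20000 bases over 88 pairs and -0.02 at 100000 bases or more over 208 pairs. A pair on chromosome 5, picked after its values were seen, had members from 79628545 to 79641275 and from 79641392 to 79643020. They had shoot values of 3.45 and 3.603 FPKM and root values of 0.130 and 0.0869 FPKM. The right member's root value rested on at most 15.9 fragments by its span.

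**Figure D3:**
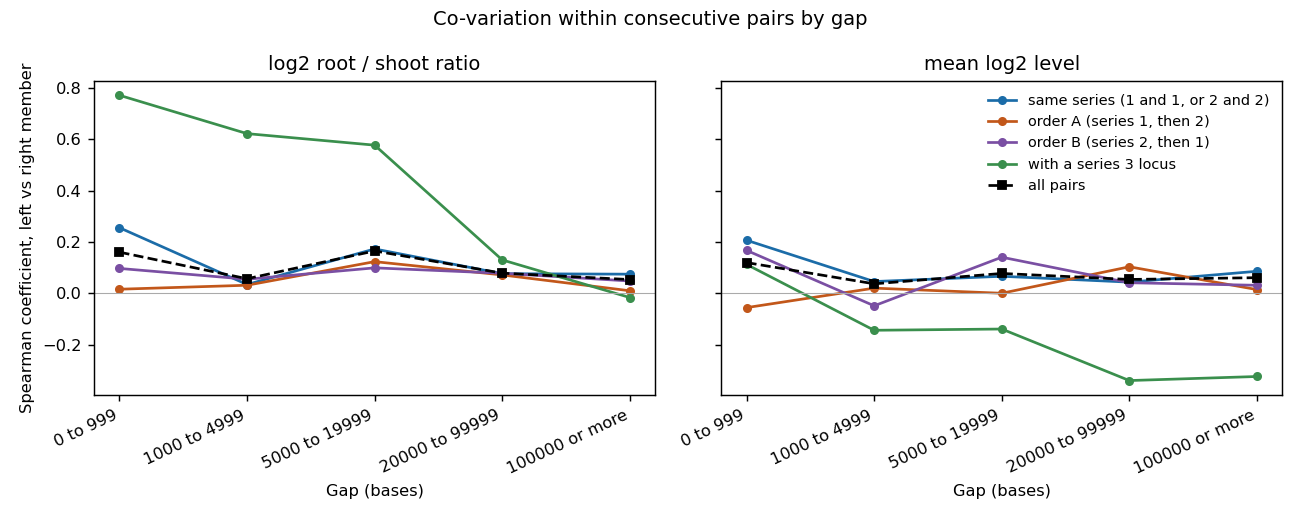
Spearman coefficient between left and right members of consecutive pairs (vertical axis) by gap in bases (horizontal axis), for the log2 ratio of root to shoot in the left panel and for the mean log2 level in the right panel, by kind of pair. In close pairs the coefficient of the ratio is 0.77 with a series 3 locus, 0.26 in same-series pairs and 0.02 in order A, and same-series pairs drop to 0.03 at 1000 to 5000 bases.

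Loci strongly higher in root were scarce among close neighbours. By the log2 ratio with 1 FPKM added, 53 members (1.87%, Wilson interval 1.43% to 2.44%) were 4-fold or more higher in root, against 3.37% of all 21341 loci of this kind. Of the 18504 such loci outside close pairs, 3.605% were higher in root, with an interval of 3.35% to 3.88%. The share was lower among members than among all such loci on each of the 10 chromosomes. It was also lower in each of 4 equal groups of loci by mean level. It was 0.613% against 2.08% in the lowest group, 3.10% against 5.25% in the next, 2.03% against 3.19% in the next and 1.63% against 2.98% in the highest. The share was similar in the 4 kinds of pair, from 1.68% with a series 3 locus to 1.95% in order B. At wider gaps it was 3.11% at 1000 to 5000 bases, 3.21% at 5000 to 20000 bases, 3.75% at 20000 to 100000 bases and 3.45% beyond. These classes share loci, since a locus counts by its left gap and by its right gap, and members of close pairs can be among them. At the 1000-base limit itself no step was seen, within wide intervals. The share was 6 of 262 loci (2.29%, interval 1.054% to 4.91%) in the pairs just inside, at 900 to 1000 bases, and 4 of 274 (1.46%, interval 0.569% to 3.69%) in those just outside, at 1000 to 1100 bases.

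The shoot side showed no such shortfall over all levels together. There 212 members (7.47%, interval 6.56% to 8.50%) were 4-fold or more higher in shoot, against 6.89% of all loci of this kind. Members exceeded that background on 7 of the 10 chromosomes, and the share is near it. By the same 4 groups of mean level, members lay under all such loci at low level and above them at high level. The shoot share was 2.91% against 3.88% in the lowest group and 6.06% against 7.20% in the next. It was 8.67% against 6.90% in the group after that and 11.7% against 9.58% in the highest. At a 2-fold difference, 402 members (14.2%) were higher in shoot against a background of 14.5%, and 244 (8.60%) higher in root against 11.4%.

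**Figure D4:**
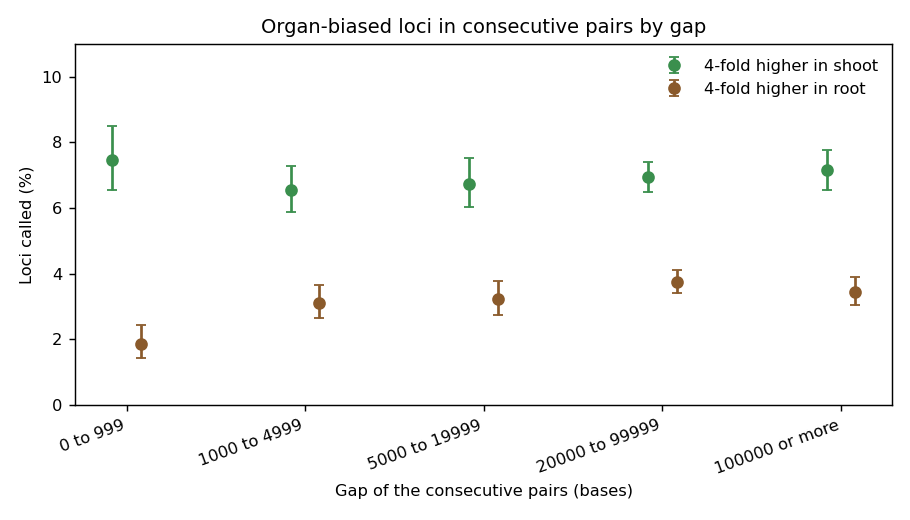
Percent of loci in consecutive pairs that were 4-fold or more higher in shoot or in root (vertical axis) by the gap of the pair in bases (horizontal axis), with 95% Wilson intervals as bars. The root share is 1.87% in close pairs and 3.11% to 3.75% at wider gaps, while the shoot share stays between 6.55% and 7.47%. The classes share loci, since a locus counts by its left gap and by its right gap.

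Pairs with both members strongly biased were few. Both members were 4-fold or more higher in shoot in 9 pairs (0.609%), against 0.66% of consecutive pairs at all gaps. Both were higher in root in 4 pairs (0.271%), against 0.38%, and the members were higher in opposite organs in 3 pairs (0.203%), against 0.38%. These shares are near or under the background. A partner of a shoot-biased member was itself shoot-biased in 18 of 218 member places (8.26%), and 7.38% of all member places were shoot-biased. For root it was 8 of 57 places (14.0%), against 1.93% of all places, but this rests on the 4 pairs. Over consecutive pairs at all gaps, the same values for root were 11.2% and 3.38%. Of the 9 shoot pairs 7 were same-series pairs and of the 4 root pairs 3 were.

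At the lower threshold of 2-fold the same direction prevailed. Both members passed it in 106 pairs. Of the 1477 close pairs, both members were higher in shoot in 58 and in root in 28. In 20 pairs they were higher in opposite organs. Over the 17121 consecutive pairs at all gaps these outcomes numbered 493, 366 and 486, or 2.88%, 2.14% and 2.84% of pairs. As shares, pairs with both higher in shoot were more frequent among close pairs. Pairs with both higher in root were slightly less frequent, and opposite ones less frequent. The same organ thus held both members in 86 of the 106 pairs (81.1%, interval 72.6% to 87.4%), against 63.9% at all gaps, with 57.0% at 1000 to 5000 bases and 77.2% at 5000 to 20000 bases. By kind, it was 36 of 43 same-series pairs (83.7%, interval 70.03% to 91.9%), 27 of 40 pairs of order A or B (67.5%, interval 52.0% to 79.9%), and 23 of 23 pairs with a series 3 locus. The intervals of the same-series pairs and of orders A and B overlap.

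The 5 shoot-biased pairs with the largest smaller ratio covered a wide range of levels. On chromosome 4, XLOC_017685 from 17326766 to 17331232 had a shoot value of 134 FPKM and a root value of 8.88 FPKM. Its order A neighbour XLOC_019230, 882 bases on and ending at 17339210, had a shoot value of 19.7 FPKM and a root value of 0.163 FPKM. The members were thus 15.1-fold and 121-fold higher in shoot. The left member of the chromosome 7 pair, from 157276416 to 157277981, had a shoot value of 878 FPKM and a root value of 0.433 FPKM, a 2027-fold difference on at most 75.5 root fragments by its span. The locus 401 bases on, ending at 157283029, had a shoot value of 205 FPKM and a root value of 21.9 FPKM, so the pair shared a direction but not a size. On chromosome 9, the locus from 128657155 to 128660756 had a shoot value of 305 FPKM and a root value of 9.80 FPKM, and its neighbour 541 bases on had values of 17.6 and 1.37 FPKM.

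The other pairs of this group differed in how even they were. On chromosome 4, the locus from 181426099 to 181428644 had a shoot value of 32.7 FPKM and a root value of 4.09 FPKM. Its neighbour 780 bases on, ending at 181431322, had a shoot value of 48.2 FPKM and a root value of 0.507 FPKM. Those members were 7.99-fold and 95.1-fold higher in shoot. The abundant pair on chromosome 6 described above belongs here too, with members 6.49-fold and 6.73-fold higher in shoot, the most even of the 5. Apart from the chromosome 4 pair of order A, the 5 were same-series pairs. In the remaining 4 shoot-biased pairs shoot values lay from 6.21 to 148 FPKM and root values from 0.352 to 19.7 FPKM.

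All 4 root-biased pairs had moderate levels. On chromosome 2, XLOC_010790 from 24813844 to 24815487 had a shoot value of 3.77 FPKM and a root value of 109 FPKM. Its neighbour XLOC_010791, 711 bases on and ending at 24819017, had a shoot value of 9.05 FPKM and a root value of 52.7 FPKM, so the members were 29.0-fold and 5.82-fold higher in root. On chromosome 4, the order B pair from 39593559 to 39596226 and from 39596574 to 39600240 was even. Its members had shoot values of 3.36 and 3.601 FPKM and root values of 27.2 and 21.0 FPKM. On chromosome 9, the locus from 152756117 to 152758770 had a shoot value of 6.63 FPKM and a root value of 38.0 FPKM, and its neighbour 896 bases on had values of 2.42 and 14.1 FPKM. Those members differed in level by 2.70-fold but were 5.73-fold and 5.81-fold higher in root. The left member of the chromosome 3 pair, from 166792919 to 166797722, had a shoot value of 1.17 FPKM and a root value of 8.51 FPKM, and its neighbour 707 bases on had values of 0.455 and 28.4 FPKM.

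In 3 pairs the members were biased to opposite organs. The pair farthest apart lay on chromosome 5 and was of order B. Its left member, from 206741918 to 206742983, had a shoot value of 0.0986 FPKM and a root value of 21.98 FPKM, a 223-fold difference on at most 9.43 shoot fragments. Its right member, 464 bases on and ending at 206744916, had a shoot value of 488 FPKM and a root value of 0.456 FPKM, a 1070-fold difference on at most 73.7 root fragments. On chromosome 1, the locus from 221368308 to 221369596 had a shoot value of 0.451 FPKM and a root value of 11.2 FPKM. The long same-series locus 979 bases on, spanning 32338 bases to 221402913, had a shoot value of 104 FPKM and a root value of 1.20 FPKM. On chromosome 4, the order A pair from 183905585 to 183908591 and from 183909335 to 183910732 had shoot values of 77.0 and 1.32 FPKM and root values of 10.5 and 18.9 FPKM.

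**Figure D5:**
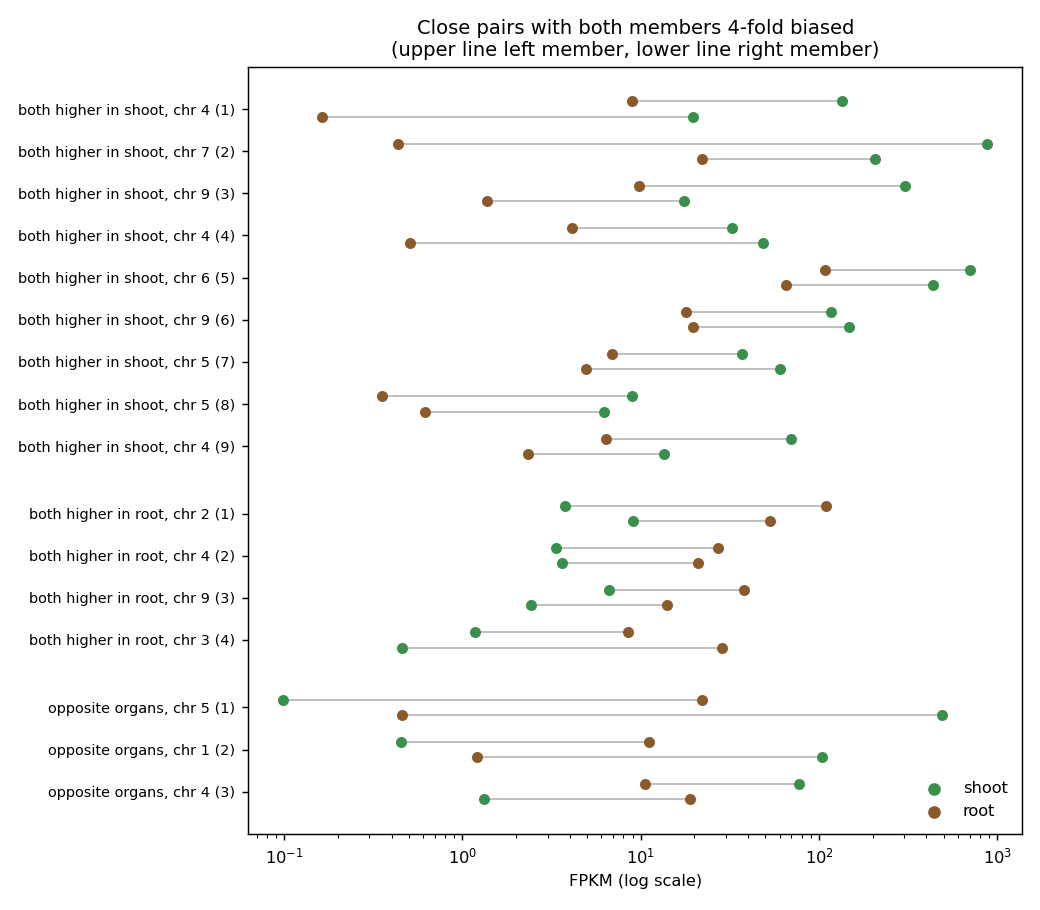
FPKM in shoot and in root (horizontal axis, log scale, 1 library each) of both members of the 16 close pairs in which both members were 4-fold or more biased. Each pair has an upper line for its left member and a lower line for its right member, grouped as 9 pairs higher in shoot, 4 higher in root and 3 biased to opposite organs.

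Likeness at the smallest gaps depended on which pairs were taken. The 114 pairs under 100 bases apart had a Spearman coefficient of the ratio of 0.09, against 0.27 over 406 pairs at 100 to 300 bases. With both members at a mean of 10 FPKM or more the order was the other way, 0.31 over 28 pairs under 100 bases, 0.06 over 124 pairs at 100 to 300 bases and 0.01 over 352 pairs at 300 to 1000 bases. All 9 pairs with a series 3 locus under 100 bases apart had both ratios on the same side of 0, with a coefficient of 0.88. Among pairs with both members at a mean of 10 FPKM or more, the 3 with the smallest gaps were all of order A. On chromosome 3, members 3 bases apart, from 166446406 to 166448700 and from 166448703 to 166453136, had shoot values of 16.9 and 43.7 FPKM and root values of 6.51 and 27.7 FPKM. On chromosome 7, members 4 bases apart, from 19052735 to 19072458 and from 19072462 to 19086956, had shoot values of 364 and 57.0 FPKM and root values of 310 and 80.7 FPKM. On chromosome 1, members also 4 bases apart, from 297046344 to 297048533 and from 297048537 to 297054619, had shoot values of 52.6 and 28.4 FPKM. Their root values were 1.31 and 23.0 FPKM, so the left member was 40.2-fold higher in shoot and the right member nearly even. Since the strand was not marked, fragments at such ends could have been counted for either member.

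Both members reached 1 FPKM in both organs in 1153 pairs (78.1%), against 73.2% of consecutive pairs at all gaps. In 280 pairs (19.0%, against 23.7%) 1 member reached it in both organs and the other in 1 organ alone. Both members reached it in shoot alone in 30 pairs (2.03%, against 1.46%) and in root alone in 5 (0.339%, against 0.713%). In 9 pairs (0.609%, against 0.929%) 1 member did so in shoot alone and the other in root alone.

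Some close pairs joined into runs. The 1477 pairs formed 1360 runs, of which 1251 had 2 loci, 101 had 3 and 8 had 4. In 46 of the 109 runs of 3 or more loci all ratios lay on the same side of 0. The median range of log2 ratios within such a run was 0.98. No background from loci at wider gaps is at hand for these values, so they are not read as a trait of runs. On chromosome 2, the run of 4 from 43549450 to 43580324 had shoot values of 17.3, 30.3, 4.73 and 2.03 FPKM and root values of 20.5, 13.1, 3.43 and 2.51 FPKM. Also on chromosome 2, the run from 210028477 to 210060148 had shoot values of 10.2, 3.51, 1.09 and 10.3 FPKM and root values of 14.5, 1.69, 0.966 and 9.83 FPKM. On chromosome 6, the run from 7146581 to 7160524 alternated between series 1 and series 2. Its loci had shoot values of 17.1, 71.0, 29.0 and 4.61 FPKM and root values of 23.9, 13.6, 36.9 and 2.75 FPKM. In that run both series 1 loci were higher in root, with log2 ratios of 0.46 and 0.33, and both series 2 loci higher in shoot. The other runs of 4 that alternated between the series, all on chromosome 6, did not repeat this. The 3 runs with values here are the first of the 8 runs of 4 in chromosome order.

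Length was arranged in mirror image in the same-series pairs. In close series 1 pairs the left member was the longer one in 161 of 256 pairs (62.9%), with median spans of 4196 bases on the left and 3233 on the right. In close series 2 pairs it was the longer one in 94 of 252 pairs (37.3%), with 3367 bases on the left and 4672 on the right. At 1000 to 5000 bases the shares were 55.3% and 38.5%, and at 5000 to 20000 bases 50.9% and 52.1%. They were 50.1% and 50.9% at 20000 to 100000 bases. At 100000 bases or more they were turned round, at 44.8% in series 1 pairs and 54.7% in series 2 pairs. The left member had the higher mean FPKM in 124 of 256 close series 1 pairs and in 126 of 252 close series 2 pairs. The medians of mean FPKM were nonetheless 12.9 on the left and 11.2 on the right in series 1 pairs, and 11.5 on the left and 15.5 on the right in series 2 pairs. Over all close pairs, spans of the left and right members had a Spearman coefficient of -0.01.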

How the data were processed

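The authors deposited 1 table of FPKM values per assembled locus, 1 column for shoot and 1 for root, with coordinates on B73 RefGen_v2, per the file headers. The submitters' processing notes list TopHat, Cufflinks and Cuffdiff; the sources used here give neither versions nor settings nor any scaling between libraries. Each value column carries the name of 1 sample, which leaves 0 unused. Loci are listed only above 1 FPKM in at least 1 organ: the smallest higher value was 1.00022 FPKM. Members and lists were chosen with earlier results of these data known, and the numbering series and their use after seeing the data. Distinct positions were ordered by start and consecutive pairs formed; ratios and levels used a pseudocount of 1. A locus was called at 2 on the log2 scale. Coefficients are across pairs, with no p-value. Named pairs were taken by rule: the 5 most extreme pairs called for each organ, all pairs called for opposite organs, 3 each by level, level difference and smallest gap, and the longest runs. Values were above 0 in all named pairs; 5 close pairs had a value listed at 0. The fragment worth was fitted on 113 low loci in shoot and 174 in root, with mean cosines of 0.543 and 0.530, and covers counting error only; spans with introns overstate fragments. The pair search and the fit were tested on simulated data. Alternatives changed the pseudocount, scaling, filter, gap, span, threshold and coefficient. Of the locus identifiers, 0 matched the RefSeq gene table, which is of a later assembly. Software was scipy 1.17.1, numpy 2.4.6, pandas 2.3.3 and matplotlib 3.10.9 under Python 3.11.15.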

Additional observations from a re-analysis of the deposited data

How the results depend on the processing

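Of 139 alternative values of 12 results, 91 stayed near the reported one, 45 moved and 3 reversed. Nearness meant within 1.5 times for counts and the median difference, within the 95% interval of counting error for shares, and within the interval of Fisher's transform for coefficients. The coefficient of level stayed between 0.07 and 0.16 and the median difference of ratios between 0.42 and 0.71 under every alternative run. Close pairs numbered 827 under 500 bases, 2463 under 2000 bases and 983 with spans above 2000. Pairs with both members higher in shoot, in root or in opposite organs numbered 40, 14 and 7 with a pseudocount of 0.1, and 5, 1 and 1 with 5. Under 500 bases they numbered 5, 1 and 1, with spans above 2000 5, 2 and 0, and at 2-fold 58, 28 and 20. At 8-fold 2 pairs were higher in shoot and 0 in root. Under 2000 bases 14 were higher in shoot and 9 opposite, with 1 FPKM in both organs 5 and 1, with spans above 300 17 were higher in shoot, and with sums of 1000000 2 were higher in root. The coefficient of the ratio was 0.10 with both members at 1 FPKM in both organs, 0.22 under 500 bases, 0.23 with spans above 300 and 0.083 as a Pearson coefficient. The share on the same side of 0 was 59.6% under 500 bases. Members higher in shoot and in root were 10.2% and 3.77% with a pseudocount of 0.1, 4.83% and 0.811% with 5, 5.53% and 1.39% with 1 FPKM in both organs, 14.2% and 8.60% at 2-fold and 4.16% and 0.564% at 8-fold. Members higher in shoot were also 5.85% with sums of 1000000 and 6.37% with spans above 2000. Among all loci of this kind, 5.97% were higher in root with a pseudocount of 0.1, 1.22% with 5, 2.56% with sums of 1000000 (members 1.52%) and 3.07% with root divided by the median ratio (members 1.73%), so the lower root share of members held under each scaling. The coefficient of same-series pairs was 0.39 under 500 bases and 0.15 under 2000 bases. That of orders A and B reversed to -0.019 with 1 FPKM in both organs, to -0.0052 with spans above 2000 and to -0.016 as a Pearson coefficient, all near 0; the cause was not tested. The alternatives on the series were chosen after seeing the data. No paired analysis was possible because each organ has 1 library, and no library could be left out, so the spread between plants is unknown.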

Other observations

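Near-equal spans, which tandem copies can have, were not frequent in close pairs. In 73 of the 1477 pairs (4.94%) the spans were within 5% of each other, against 4.17% of consecutive pairs at all gaps. The ratios of these 73 had a Spearman coefficient of 0.03 and the levels one of 0.16, as a description across pairs. The following pairs were picked after their values were seen. On chromosome 10, loci from 25773761 to 25777117 and from 25777379 to 25780578, spanning 3356 and 3199 bases, had shoot values of 61.6 and 42.5 FPKM and root values of 4.36 and 11.4 FPKM. On chromosome 3, loci from 168480656 to 168484383 and from 168484474 to 168488290, spanning 3727 and 3816 bases, went apart. The left member had a shoot value of 62.2 FPKM and a root value of 4.80 FPKM, and the right member values of 8.05 and 17.1 FPKM. Reads that fit both members of such a pair could not be told apart from these files.

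On chromosome 5, 3 close loci from 115892347 to 115900733 were each higher in shoot. They had shoot values of 2.998, 8.95 and 6.21 FPKM and root values of 0.0540, 0.352 and 0.620 FPKM. The left one is a series 3 locus and its root value rested on at most 6.58 fragments by its span. The other two form 1 of the 9 pairs with both members 4-fold or more higher in shoot.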
